A study of Mus musculus with 6 samples.

Results

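Protein kinase A, the enzyme through which cyclic AMP reaches most of its targets, was followed in mouse muscle through the 7 genes Prkaca, Prkacb, Prkar1a, Prkar1b, Prkar2a, Prkar2b and Pkia. They were found by gene symbol among the 18193 genes that the array platform's annotation names, and all 7 were measured, by 22 probe sets (groups of short probes against the same transcript) of 45037. The members were chosen by the measured KO against WT intensities of Prkar2b, lower in KO at several probe sets, so the Prkar2b values are given as a description without a test. RNA came from the muscle of 6 mice on the 129SvJ background, 3 labelled wild type (WT) and 3 labelled SIRT6KO (KO), SIRT6 being a chromatin-bound NAD-dependent deacylase, and each sample was hybridized to its own Affymetrix Mouse Genome 430 2.0 array. The labels give no age, sex, muscle or allele design, and they name no treatment for either group.

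In the resting enzyme a dimer of regulatory subunits holds catalytic subunits inactive. Cyclic AMP, made by adenylyl cyclases when hormones such as adrenaline bind their receptors, docks on the regulatory subunits and frees the catalytic ones to phosphorylate enzymes and transcription factors, and phosphodiesterases end the signal by breaking cyclic AMP down. The regulatory subunits fall into type I (Prkar1a, Prkar1b), largely soluble, and type II (Prkar2a, Prkar2b), mostly tethered by anchoring proteins. In muscle the pathway drives glycogen breakdown, and the type II subunit encoded by Prkar2b is best known from fat and brain.

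The promoter windows of 3 regulatory subunit genes are printed. Prkar2b was far lower in KO, and its closest relative Prkar2a somewhat lower on average with overlapping groups. Prkar1a was higher at 1 probe set and mixed at its brightest. A link between the motifs and these values was not tested. Each window runs from 250 bases before to 50 bases after a RefSeq start site on build GRCm38.p6, 5′ to 3′ on the gene's strand, and capitals mark every match on either strand to TGACGTCA (the cAMP response element), TGACG (the core that this element contains), CACGTG (an E-box), GGGCGG (the GC box, bound by Sp factors) and CCAAT (the box bound by nuclear factor Y).
Prkar2b, chr12:32061228-32061527, - strand: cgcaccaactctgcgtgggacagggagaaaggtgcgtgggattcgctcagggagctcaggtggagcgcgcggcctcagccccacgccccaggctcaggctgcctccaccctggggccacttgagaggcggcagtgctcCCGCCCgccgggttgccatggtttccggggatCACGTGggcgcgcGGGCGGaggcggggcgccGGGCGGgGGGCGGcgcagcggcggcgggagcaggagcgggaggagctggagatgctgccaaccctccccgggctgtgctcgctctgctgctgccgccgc
Prkar2a, chr9:108691893-108692192, + strand: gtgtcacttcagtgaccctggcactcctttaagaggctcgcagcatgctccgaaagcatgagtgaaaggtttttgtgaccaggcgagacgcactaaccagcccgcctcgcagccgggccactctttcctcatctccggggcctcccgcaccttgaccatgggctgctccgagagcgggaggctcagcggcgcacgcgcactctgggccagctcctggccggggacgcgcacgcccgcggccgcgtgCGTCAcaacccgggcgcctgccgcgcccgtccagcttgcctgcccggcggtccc
Prkar1a, chr11:109650699-109650998, + strand: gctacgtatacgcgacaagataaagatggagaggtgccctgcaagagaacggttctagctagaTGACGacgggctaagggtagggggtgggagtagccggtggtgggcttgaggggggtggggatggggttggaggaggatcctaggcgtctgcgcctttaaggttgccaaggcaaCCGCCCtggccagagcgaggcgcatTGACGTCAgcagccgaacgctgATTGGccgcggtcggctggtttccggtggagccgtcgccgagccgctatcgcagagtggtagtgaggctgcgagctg
The Prkar2b window held 1 E-box, starting 80 bases before the start site, and 4 GC boxes, but neither TGACGTCA nor TGACG. The Prkar2a window held 1 TGACG, on the opposite strand, and none of the other motifs. The Prkar1a window held TGACGTCA 49 bases before the start site, 1 further TGACG that is not part of it, 1 GC box and 1 CCAAT box. It was picked among windows that hold TGACGTCA, so that match was fixed by the choice. Of 6 Prkar1a windows 2 held the element. Prkar2a had 1 window. Prkar2b had 2, of which the outermost is printed, and 1 of the 2 held an E-box and 1 a GC box. Among 32817 mouse windows of this length, 1.79% held TGACGTCA, 20.8% TGACG, 7.15% CACGTG, 35.6% GGGCGG and 37.4% CCAAT. Of the 7 genes 6 had windows in the table, 19 in all, and TGACGTCA was in 2 of them, both of Prkar1a and overlapping. These are matches of letters, and binding was not measured.

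The arrays as a whole set limits on what follows. Median intensity lay between 10.8 and 15.0, and 51.71% to 60.34% of probe sets on an array were below 16, the offset added before taking log2. The hybridization controls of WT replicate 1 were 1.88 times those of WT replicate 2, against 0.976 to 1.013 times on the other 4 arrays, and WT replicate 1 is also the brightest WT array for many genes below. Sirt6 at its named probe set overlapped between the groups (15.1 to 23.2 in WT, 13.7 to 22.6 in KO), and whether that probe set lies in the deleted part is not known here, so the labels have no direct check. Xist at its brightest probe set read 24.5 to 31.3 in WT and 715.4 to 1165.7 in KO, and the Y-linked Eif2s3y 44.5 to 77.1 and 1.1 to 4.1, so the labels split the mice exactly as these sex-linked transcripts did, and genotype and sex cannot be told apart in any difference below. All 8 skeletal muscle markers were well measured, with summed intensities of 33909 to 55786 in WT and 35369.7 to 36770.4 in KO.

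Of the 22 probe sets of the kinase A genes, 16 had a mean intensity of at least 16 over the 6 arrays and are described singly. The other 6 (4 of Prkar1b, 1 of Prkacb and 1 of Prkar2a) ranged from 0.8 to 39.8 on single arrays. With limma over all 45037 probe sets and Benjamini-Hochberg adjustment, 0 of the 22 passed an adjusted p of 0.05, where 0.00888% of all probe sets (4 in number) did. Refitted to the 22518 probe sets above the median level, limma called 3 of the 18 then kept, all lower and all of Prkar2b, where 0.266% of all were called lower, and 0 when WT replicate 1, WT replicate 3 or KO replicate 2 was also left out. Prkar2b was chosen for these very values, and the level used by the filter includes its brighter WT arrays. This count is therefore no test of it and nothing is read from it. At an unadjusted p under 0.05 there were 5 of the 22, 3 of them Prkar2b, against 8.56% of all. In 4 of the 16 brighter probe sets all 3 KO arrays lay below all 3 WT arrays, against 9.40% of all 19376 probe sets of that brightness, and in 1 all KO arrays lay above, against 5.83%. Since 3 of the 4 are the Prkar2b probe sets that prompted the choice, nothing is read from that count. The other 13 held 1 lower, 1 higher and 11 overlapping probe sets.

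**Figure D1:**
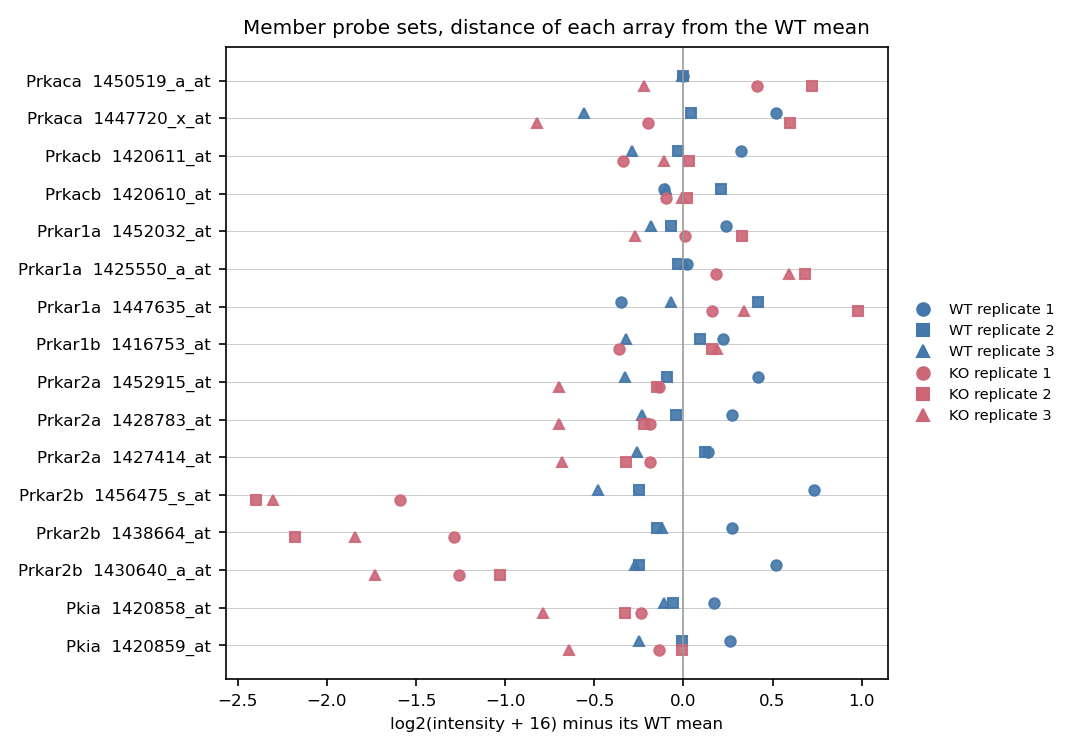
Distance of each array from the WT mean on the log2(intensity + 16) scale for the 16 brighter probe sets of the kinase A genes; symbols mark the replicate and colours the group. The 3 Prkar2b probe sets stand apart, with every KO array 1.03 to 2.40 below the WT mean, while the other 13 mix the groups or part them by less.

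Prkar2b, the type II beta regulatory subunit, was low in every KO array at each of its 3 probe sets. Probe set 1456475_s_at read 254, 120.3 and 100.1 in WT replicates 1, 2 and 3 and 37.9, 14.8 and 16.9 in KO replicates 1, 2 and 3. WT replicate 1 was far above the other WT arrays, and the groups did not overlap: the lowest WT array lay well above KO replicate 1, the highest KO array. Probe set 1438664_at read 118.3, 84.6 and 86.7 in WT and 29.7, 8.6 and 15.1 in KO, and probe set 1430640_a_at read 86.1, 43.6 and 43.1 in WT and 13.7, 18.8 and 5.5 in KO. KO replicate 1 was the highest KO array at 2 of the 3 probe sets, and KO replicate 2 at 1430640_a_at.

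In group terms Prkar2b read 158 ± 83.6 (WT) and 23.2 ± 12.8 (KO) at 1456475_s_at, 96.5 ± 18.9 and 17.8 ± 10.8 at 1438664_at, and 57.6 ± 24.7 and 12.7 ± 6.71 at 1430640_a_at (SD, n = 3 each). The log2(intensity + 16) changes, KO minus WT, were -2.10, -1.77 and -1.34, or 4.28-fold, 3.41-fold and 2.53-fold lower. These folds understate the change of dim signals, because several KO values lie near or below the offset. With an offset of 1 the first of these changes was -2.72, and with an offset of 64 it was -1.30. Without the bright WT replicate 1 the changes were -1.73, -1.64 and -1.08. The 3 probe sets are not independent looks at the gene: they were designed from 2 sequence records, and the _s_at suffix marks probes that can match more than 1 transcript. In muscle tissue, fewer cells that carry a transcript and less of it per cell cannot be told apart.

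Because this subunit is abundant in fat, fat markers are set beside it. Summed over 6 measured brown adipocyte markers, intensity was 1129 to 1849.9 in WT and 272 to 394 in KO. Most of the WT sum came from Ucp1 and Cidea, so it says little about the other markers. Ucp1, the uncoupling protein of brown fat, read 877.2, 570.3 and 586.1 in WT and 129.9, 5.9 and 2.3 in KO, and Cidea, a lipid droplet protein, 824, 429.9 and 442 against 164, 135.8 and 191.2. Both were highest in WT replicate 1, the array with the bright hybridization controls, and lower in every KO array than in any WT array. Among the KO arrays Ucp1 was highest in replicate 1 and Cidea in replicate 3. Otop1, with a mean of only 13.4, was also lower in all 3 KO arrays, whereas Dio2, Elovl3 and Ppargc1a overlapped. In 2 of the 4 brighter genes of this list all KO arrays lay below all WT arrays, where 10.0% of all genes of that brightness did. No marker of this list passed with limma (lowest adjusted p = 0.384).

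General adipocyte markers had no call either, and 7 of their 8 brighter genes lay below WT on average, with a median log2 change of -0.47 beside -0.84 for the 4 brighter brown markers. In 2 of the 8 all KO arrays lay below all WT arrays, where 10.0% of all genes of that brightness did. Their summed intensity over 9 measured genes of 12 was 7048 to 14658 in WT and 5483 to 9458 in KO, so the groups overlapped. Adipoq, the adipokine adiponectin, read 606.9, 295.6 and 293.9 in WT and 131, 277.8 and 339.5 in KO, with KO replicate 3 above the lower WT arrays. Fabp4, Lpl, Pparg, Cidec and Lipe overlapped too, while Retn, Car3 and the dim Lep (mean 8.6) were lower in all 3 KO arrays. None of the 9 passed with limma (lowest adjusted p = 0.524), and no marker of either list was at 0 on all arrays. The part of fat tissue in the Prkar2b values was not tested.

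**Figure D2:**
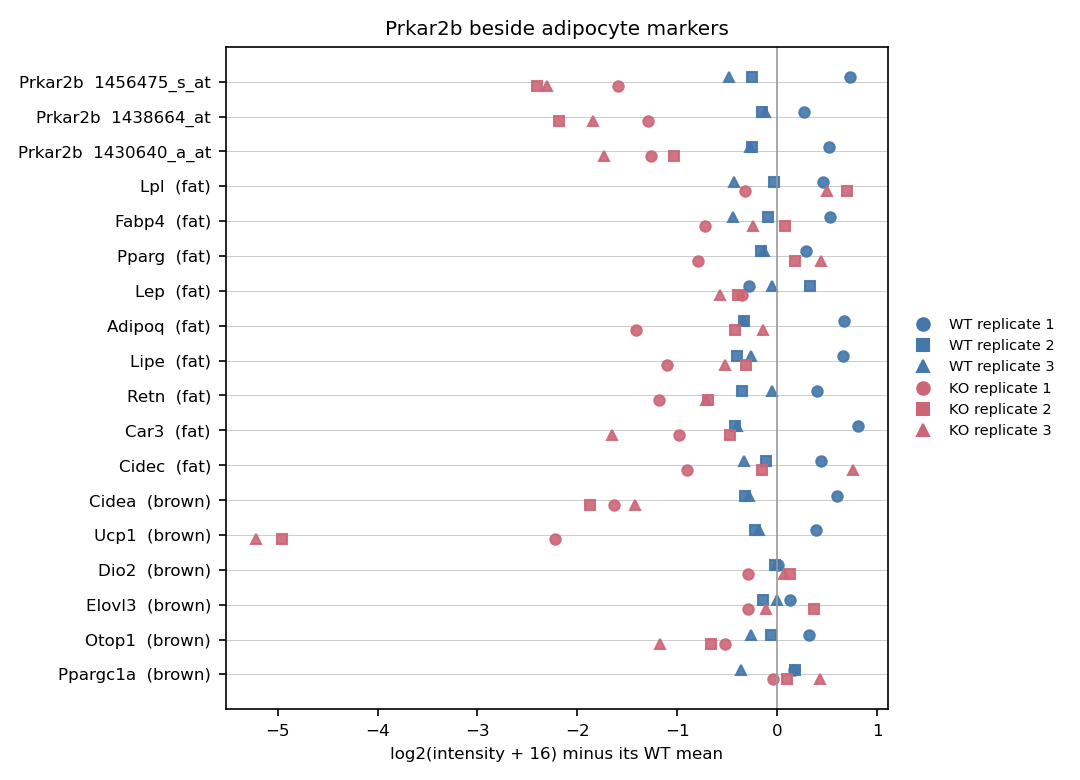
Distance of each array from the WT mean on the log2(intensity + 16) scale for the 3 Prkar2b probe sets, 9 general adipocyte markers (fat) and 6 brown adipocyte markers (brown). Prkar2b was lower in all 3 KO arrays, as were Retn, Lep and Car3 of the general list and Ucp1, Cidea and Otop1 of the brown list, and in the other 6 general and 3 brown markers the groups overlapped. Lep and Otop1 had mean intensities below 16. Of all genes with a mean of at least 16, 10.0% were lower in all KO arrays.

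Markers of other cells that muscle samples hold differed in part. The fibroblast and connective tissue list summed to 7816 to 13698 in WT and 3793 to 8026 in KO, with 4 of 8 genes (Col1a1, Dpt, Lum and Tnmd) lower in all KO arrays, where 10.0% of all brighter genes were. Slow fibre markers summed to 1176 to 2822 in WT and to 3067.8, 8126 and 2279 in KO replicates 1, 2 and 3. Of these 10 genes 9 were higher on average, with a median log2 change of 1.05. In 2 (Tnnc1 and Myoz2) all KO arrays lay above all WT arrays, where 4.82% of all brighter genes did. Fast fibre markers summed to 89256 to 145126 in WT and 91569 to 94952 in KO. Neural and Schwann cell markers, of interest because Prkar2b and Prkar1b are brain subunits, summed to 331 to 524 and 429.9 to 843, and the neuronal genes Tubb3, Snap25 and Nefm stayed at or below 9 on every array, with Syp reaching 19. S100b, a Schwann cell marker, was the 1 of 4 brighter genes of this list lower in all KO arrays. It read 31.6, 29.8 and 26.1 in WT and 20.1, 11.6 and 5 in KO. The other 3, Mbp, Pmp22 and Sox10, lay higher on average with overlap, at log2 changes of 0.57, 0.32 and 0.05. Endothelial sums were 416 to 541 in WT and 389 to 688 in KO. Smooth muscle and pericyte sums were 1216 to 1874 and 937 to 1461, macrophage sums 379.6 to 652 and 318 to 507, and blood sums 48.9 to 83.8 and 39.5 to 59.2. The part of these cells in the values of the kinase A genes was not tested.

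Prkar2a, the other type II regulatory subunit and the more general one, read lower on average in KO at all 3 of its brighter probe sets, without a clear gap. Probe set 1452915_at read 458.1, 317 and 265.6 in WT and 306, 302.4 and 202.5 in KO, a log2 change of -0.33 with a 95% interval of -0.91 to 0.26 (limma adjusted p = 0.757, n = 3 each). KO replicate 3 was the lowest array, and the other KO arrays lay within the WT range. The change was -0.37 (-0.85 to 0.10) at 1428783_at and -0.40 (-0.84 to 0.04) at 1427414_at, with adjusted p-values of 0.652 and 0.609. The 2 brightest were designed from the same sequence record. The dim probe set 1432409_at read 39.8 in WT replicate 1 and 2.1 in both other WT arrays.

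Prkar1a, the ubiquitous type I subunit, depended on the probe set. At 1425550_a_at it read 277.4, 267.3 and 274.8 in WT and 312.6, 447.5 and 418.4 in KO, so that all KO arrays lay above all WT arrays. The log2 change was 0.48 (0.11 to 0.86, unadjusted p = 0.0196 in limma), and it did not pass over all probe sets (adjusted p = 0.552). The brighter probe set 1452032_at read 504.5, 403.4 and 372.9 in WT and 425.6, 534.6 and 348.5 in KO, a change of 0.02 (-0.45 to 0.49, adjusted p = 0.992), with the groups fully mixed. The third, 1447635_at, was near the offset at 11.1 ± 7.52 and 22.4 ± 12.1 and overlapped (SD, n = 3 each). The 3 were designed from 3 different records.

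Prkar1b, the neural type I subunit, was barely above the dim range at 1 probe set and below it at 4. At 1416753_at it read 27.3, 23.6 and 13.8 in WT and 12.9, 25.4 and 26.4 in KO, with equal group means of 21.6 and a change of 0.00 (-0.51 to 0.51). Each group held 1 low array and 2 higher ones.

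Prkaca encodes the main catalytic subunit. At 1450519_a_at it read 260.4, 260.4 and 258 in WT, a spread of only 1.39 (SD), and 349.4, 437.4 and 221.3 in KO. KO replicates 1 and 2 lay above WT and KO replicate 3 below it, so the KO arrays enclosed the WT arrays. The log2 change was 0.30 (-0.26 to 0.87, limma adjusted p = 0.771). At 1447720_x_at, whose suffix marks probes that can cross-hybridize, it read 275.9, 193.4 and 121.9 in WT and 160.8, 292 and 98.9 in KO, a change of -0.14 (-1.12 to 0.84). Here the WT arrays themselves differed widely, and KO replicate 2 was again the highest and KO replicate 3 the lowest KO array.

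Prkacb, the other catalytic subunit gene, showed no difference larger than its spread. At 1420611_at it read 105.5, 78.9 and 63.3 in WT and 60.8, 83.1 and 74.1 in KO, a change of -0.14 (-0.60 to 0.32, limma adjusted p = 0.892), and at 1420610_at 25.6 ± 5.40 and 24.6 ± 1.69 (SD, n = 3 each). The interval at 1420611_at still allows a decrease of 0.60 on the log2 scale.

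Pkia encodes the heat-stable inhibitor that blocks free catalytic subunits and is well expressed in muscle. At 1420858_at it read 691.6, 588.5 and 567.9 in WT and 518.4, 483.9 and 349.2 in KO. Every KO array was below every WT array, with KO replicate 3 the lowest, but the gap between the closest arrays of the groups was smaller than the spread within either. The change was -0.45 (-0.88 to -0.02, unadjusted p = 0.0422), and it did not pass over all probe sets (limma adjusted p = 0.577). At 1420859_at, designed from the same record, it read 680, 559.4 and 472.1 in WT and 509.1, 562.3 and 355.9 in KO, and the groups overlapped (-0.26, -0.78 to 0.25, adjusted p = 0.785).

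**Figure D3:**
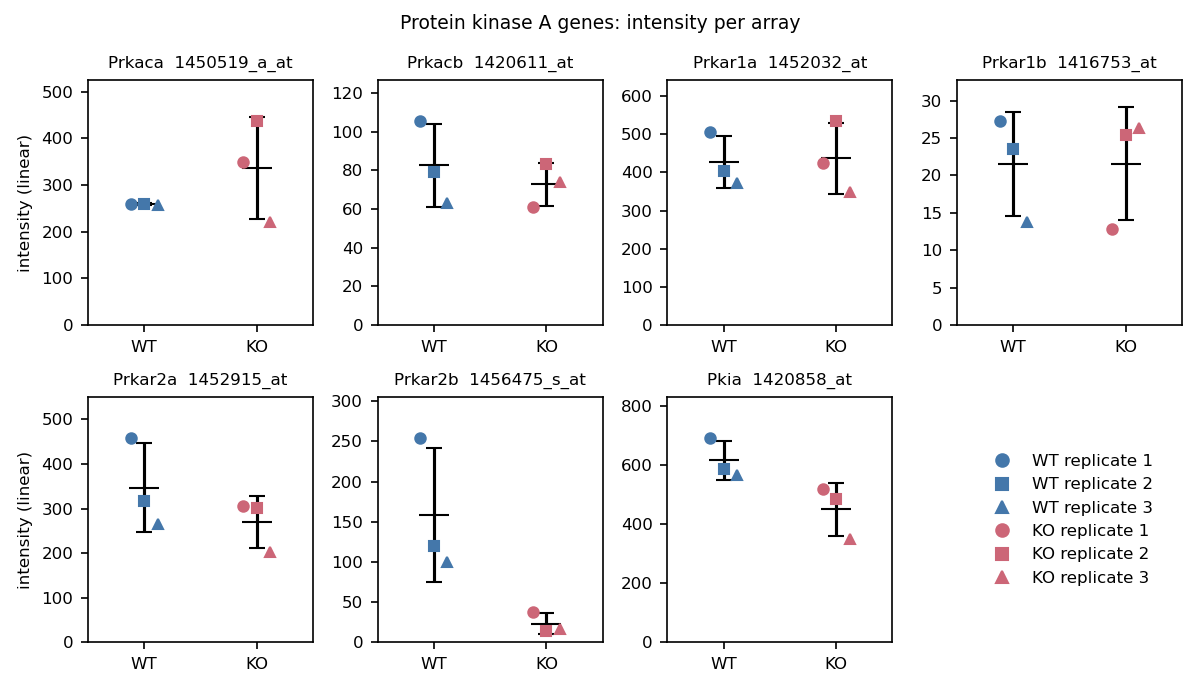
Linear intensity per array for the brightest probe set of each of the 7 genes, each panel with its own axis from 0; symbols are single arrays, bars the mean and SD of 3 arrays. Prkar2b is at 100.1 to 254 in WT and 14.8 to 37.9 in KO, and Pkia at 567.9 to 691.6 and 349.2 to 518.4, while the other 5 genes overlap.

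Across the 13 brighter probe sets other than Prkar2b the median log2 change was -0.14, beside 0.01 over all probe sets of that brightness. Their adjusted p-values, with the dimmer ones of these 6 genes included, ran from 0.552 to 0.999.

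The genes whose values followed those of Prkar2b most closely over the 6 arrays were sought among 10338 genes with a mean of at least 16, each by its brightest probe set against 1456475_s_at. They were Homer2, a synaptic and muscle scaffold protein (Pearson's r = 0.9969), Esr1, the oestrogen receptor alpha (0.9945), Kpna1, a nuclear import receptor (0.9942), Pigm, an enzyme of glycolipid anchor synthesis (0.9933), and Tmem208, a membrane protein (0.9927). Homer2 read 100.1, 54.9 and 48.3 in WT and 25.7, 15.8 and 14.8 in KO, and Esr1 175.1, 123.8 and 101.3 against 47.5, 27.2 and 26.5. In all 5 the highest array was WT replicate 1 and all KO arrays lay below all WT arrays, which is the pattern sought, so their differences carry no test. With 6 points in separate groups, a high r mostly states that split, and the arrays share their overall brightness.

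The rest of the pathway was followed in 113 listed genes of cyclic AMP signalling, of which 101 were measured and 80 had a mean of at least 16. With limma 0 of their 244 probe sets passed (26 were at an unadjusted p under 0.05, where 8.56% of all probe sets were), and the lowest adjusted p of a gene's brightest probe set was 0.511. Of the 80 genes 31 were higher and 49 lower on average, with a median log2 change of -0.07 beside -0.01 over all genes of that brightness. In 7 genes all KO arrays lay below all WT arrays and in 5 above, 15.0% together, where 14.8% of all such genes did, 10.0% lower and 4.82% higher. The share is near that of all genes. It counts Irs2, with a WT mean of 6.8, and Adcy5, with a KO mean of 14.8. Each reached a mean of 16 only through the group where it was higher.

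Upstream of the kinase, 0 of 9 brighter receptors and G proteins parted the groups, where 14.8% of all genes of that brightness did. Gnai1, an inhibitory G protein, had mean intensities of 48.1 ± 18.1 (WT) and 30.8 ± 8.90 (KO, SD, n = 3 each), and Gnb1, a beta subunit, 153 ± 34.6 and 114 ± 40.5. Gnai2, another inhibitory G protein, had 297 ± 117 and 227 ± 51.3, while the receptor gene Calcrl lay the other way at 26.2 ± 7.30 and 36.1 ± 19.7. Of 8 adenylyl cyclases, Adcy2 was higher in all KO arrays (103.9, 108.7 and 78.2 in WT, 114, 138.8 and 169.7 in KO, limma adjusted p = 0.572). Adcy5 was lower in all of them (22.7 ± 3.67 and 14.8 ± 3.21), and Adcy7 read 30.7 ± 12.1 and 13.9 ± 9.44 with overlap. Adcy4 read 15.7 ± 9.02 and 23.3 ± 5.85, also with overlap. The cyclases thus lay in both directions, and none passed.

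Phosphodiesterases also went both ways. Pde7b, specific for cyclic AMP, read 138.7, 153.1 and 83.7 in WT and 75.5, 62.9 and 14.3 in KO, a change of -1.19 (limma adjusted p = 0.564). Its relative Pde7a read 89.1, 64.8 and 55.6 in WT and 74.9, 170.7 and 403.4 in KO, a change of 1.18 (adjusted p = 0.592). The Pde7a groups overlapped through KO replicate 1, and all 7 of its brighter probe sets were higher on average in KO. Pde4d, the target of anti-inflammatory inhibitors such as rolipram, read 291.7, 322.6 and 142.3 in WT and 382.8, 449 and 388.2 in KO, with no overlap (0.73, adjusted p = 0.576). Pde8a was also higher in all KO arrays, at 21.9 ± 6.39 and 32.5 ± 6.68 (SD, n = 3 each).

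Among the anchoring proteins, which hold type II kinase at its targets, Synm (synemin, an intermediate filament protein that binds kinase A) read 932, 876.5 and 693.8 in WT and 628.5, 299.3 and 235.6 in KO, a change of -1.18 (limma adjusted p = 0.529). All KO arrays were lower, KO replicate 1 least so, and both brighter Synm probe sets pointed the same way. Cmya5 (myospryn, an anchor at the muscle costamere) was higher in all KO arrays, at 2193 ± 407 and 2801 ± 178 (SD, n = 3 each), and Akap9 and Akap11 were higher on average with overlap. Of the 13 brighter anchoring genes, however, 8 were lower and 5 higher on average, with a median log2 change of -0.16. In 2 all KO arrays lay below all WT arrays and in 1 above, where 10.0% and 4.82% of all genes of that brightness did.

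Of other cyclic AMP binding genes, Popdc2, a membrane protein of the Popeye family, had the lowest p-value: it read 124.4, 88.1 and 91.9 in WT and 59.3, 42.9 and 28.1 in KO, a change of -1.00 (limma adjusted p = 0.511). Its groups were well apart, whereas its relatives Bves (138 ± 24.9 and 131 ± 31.9) and Popdc3 (203 ± 58.3 and 172 ± 24.3) overlapped. Prkx, a kinase close to the catalytic subunits, read 47.8 ± 4.41 and 45.4 ± 9.81 (SD, n = 3 each).

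Among 18 brighter substrates of the kinase 1 parted the groups, where 14.8% of all genes of that brightness did. Crem, a cAMP-responsive transcription factor, read 43.5, 31.2 and 27.7 in WT and 16.9, 23.5 and 15.7 in KO, a change of -0.52 (limma adjusted p = 0.540). Phkg1, the catalytic subunit of muscle phosphorylase kinase, read 557 ± 85.0 and 381 ± 123 (SD, n = 3 each), and Lipe, the hormone-sensitive lipase that is also a fat marker, 192 ± 89.5 and 113 ± 34.4, both with overlap. Sik3 read 55.1, 48.9 and 37.9 in WT and 49.1, 107.3 and 155.7 in KO, high in KO replicates 2 and 3 alone.

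Genes that CREB, the transcription factor activated by the kinase, is known to induce lay on both sides: 12 of 18 were higher and 6 lower on average, with a median change of 0.21. Pck1, a gluconeogenic enzyme also abundant in fat, read 284.2, 177.6 and 108 in WT and 62.6, 51.2 and 68.3 in KO, a change of -1.34 (limma adjusted p = 0.511). Irs2, an insulin receptor substrate, lay the other way at 6.5, 5.5 and 8.4 in WT and 26.1, 23.6 and 79.2 in KO, a change of 1.25 from WT values below the offset (adjusted p = 0.524). In both genes the groups did not overlap. Irs2 reached a mean of at least 16 only through its KO arrays (WT mean 6.8), so nothing is read from its gap. The list's median distance from the WT mean was 0.27, 0.10 and -0.38 in the WT replicates and -0.09, 0.11 and 0.55 in the KO replicates, so the WT spread covered KO replicates 1 and 2.

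**Figure D4:**
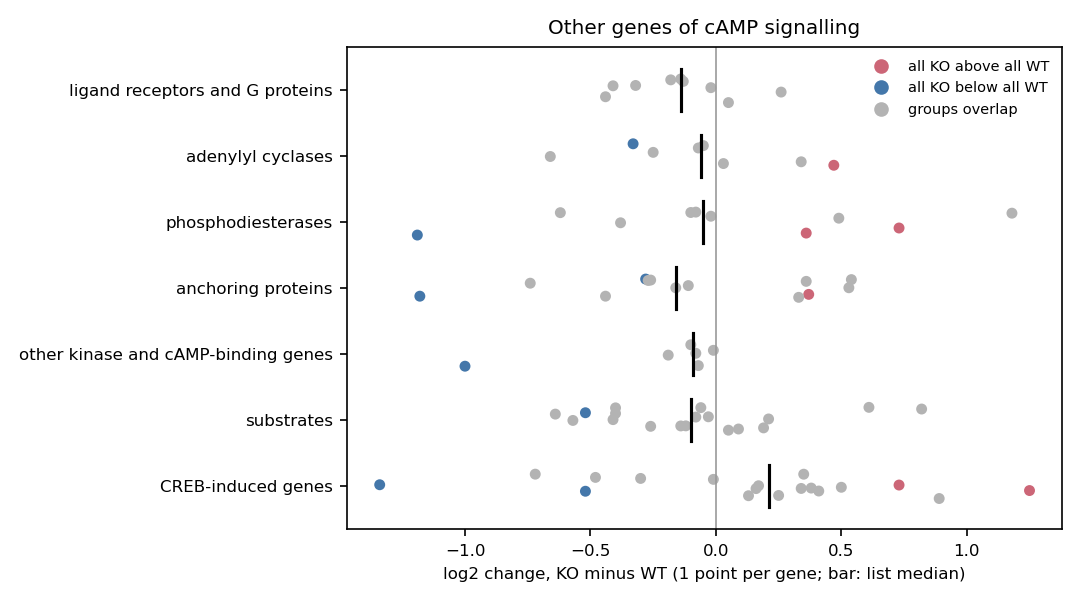
Log2 change, KO minus WT, of each cyclic AMP signalling gene with a mean intensity of at least 16, by role; black bars are list medians and colours show whether the groups overlapped. Medians lie between -0.16 and 0.21, and Pde7b, Synm, Popdc2 and Pck1 lie furthest below 0 and Irs2 and Pde7a furthest above. Irs2 reached a mean of at least 16 only through its KO arrays.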

How the data were processed

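Transcript levels were read from 1 deposited table of 6 arrays, with 1 intensity per probe set on a linear scale. How the authors summarised and scaled these deposited intensities is not given in the sources used here. Total RNA came from a TriPure extraction and carried a biotin label, per the labels' protocols. Of 45101 probe sets 64 manufacturer's controls were left out. Values were taken as log2(intensity + 16) without further normalization and fitted with limma 3.58.1 in R 4.3.3 (group as the only term, lmFit and eBayes, two-sided, Benjamini-Hochberg over 45037 probe sets, threshold 0.05). A fold on this scale understates changes of dim probe sets. Intervals are limma's at 95%. The fit was tested on simulated data. The number of arrays limits the precision.

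Symbols came from the platform annotation (34945 probe sets with 1 symbol, 932 with several, 9160 with none listed), and 34741 matched RefSeq by gene identifier. Promoter sequences are RefSeq's, build GRCm38.p6. Each gene is represented by its probe set with the highest mean. Genes named are all members, up to 4 per pathway list with the lowest p at a mean of at least 16, and the 5 most like Prkar2b. The cell type lists were adipocyte, brown adipocyte, fast and slow fibre, skeletal muscle, neural and Schwann cell, fibroblast, endothelial, smooth muscle, macrophage and blood. Members and lists were chosen with earlier results of these data known. Alternatives were quantile normalization, median centring, a filter on the median level, offsets of 1 and 64, eBayes with trend and robust options, a block for the replicate number, each array left out, a threshold of 0.01 and averaging the probe sets of a gene. The filter combined with each array left out was chosen after seeing the data.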

Additional observations from a re-analysis of the deposited data

How the results depend on the processing

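Of 215 single values of the kinase A genes under the alternatives, 196 kept their direction and their side of the threshold, 4 passed it where the reported fit did not, and 15 turned sign. All 40 values of Prkar2b stayed below 0, from -0.65 to -2.72. The 4 that passed were Prkar2b probe sets, 3 with the filter above the median level and 1 with the trend and robust options. Prkar2b was chosen for this difference, and the level used by the filter includes its brighter WT arrays. These calls are therefore given as a dependence on settings and not as a test. The count of kinase A probe sets called was thus 0 as reported, 3 with the filter (60 of 22518 probe sets, or 0.266%, were called lower there) and 1 with the trend and robust options. With the filter and 1 array left out it was 0 on removing WT replicate 1, on removing WT replicate 3 and on removing KO replicate 2, then 2 on removing WT replicate 2, and 3 on removing either of KO replicates 1 and 3. Under every other single alternative run it was 0, and the pathway's count was 0 under all of them.

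Values that turned sign were all small and uncalled. With single arrays left out the log2 change ran from -0.51 to 0.20 for Prkaca 1447720_x_at, from -0.28 to 0.024 for Prkacb 1420611_at, from -0.081 to 0.076 for Prkacb 1420610_at, from -0.13 to 0.17 for Prkar1a 1452032_at and from -0.16 to 0.18 for Prkar1b 1416753_at. Quantile normalization gave -0.046 for Prkar1a 1452032_at and 0.0042 for Prkar1b 1416753_at, median centring gave 0.019 for the latter, and the mean of all its probe sets gave 0.041 for Prkacb. The cause was not tested.

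Over all probe sets 4 were called as reported, 9 with quantile normalization, 11 with median centring, 79 with the filter, 1 with an offset of 64, 15 with those options, 2 at a threshold of 0.01 and 1 to 6 with an array left out (1 on removing either of WT replicates 1 and 2 or KO replicate 2, and 2 on removing KO replicate 3). The replicate number as a block gave 0 calls. The labels number the mice separately by genotype. Deviations of same-numbered arrays correlated at -0.0567, 0.0263 and -0.0569, and those of differently numbered arrays at -0.0441 to 0.0968. No sign of pairing by number was seen, though so few arrays cannot exclude it. Intensities near or below the offset limit what Prkar1b and the dim probe sets can show.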
